A study of Homo sapiens with 8 samples.

Results

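Narrow NKRF peaks that lay deep inside protein-coding genes after si-Uc003xsl.1 were examined. NKRF, the NF-kB repressing factor, was mapped by chromatin immunoprecipitation followed by sequencing (ChIP-seq) in MDA-MB-231-P3 cells, a line of the MDA-MB-231 triple-negative breast cancer family. Cells of the control group had received a control siRNA and those of the other group siRNA duplexes against the long non-coding RNA Uc003xsl.1. Each group had 2 NKRF libraries and 2 input libraries of sheared DNA that was not immunoprecipitated. The series title names Uc003xsl.1 as a decoy for NKRF, so the comparison asks where NKRF sat on DNA once the RNA was targeted. No measurement of Uc003xsl.1 itself was used here.

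A member was a peak on chromosomes 1 to 22 of either si-Uc003xsl.1 list that held 10 or more tags, was under 500 bp long and shared no base with a peak of the other si-Uc003xsl.1 list. Its summit, the position of highest signal, lay inside a RefSeq protein-coding gene and over 1 kb from every end of a protein-coding or lncRNA gene. There were 1067 such peaks, 637 in replicate 1 and 430 in replicate 2, among 12040 peaks of both si-Uc003xsl.1 lists and 20386 peaks of all 4 lists. Members were thus chosen by their measured tag number, width, overlap and position, and those values are given below as descriptions. Peaks inside genes of either strand, in exons and in introns were pooled, because the annotation used here gives gene spans only.

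NKRF is a DNA-binding repressor that is known for silencing some NF-kB target genes, among them those of interferon beta and interleukin 8, and for a role in ribosomal RNA processing. Most of the length of a human gene is intron, where enhancers, silencers and alternative promoters lie. Many genes have several transcription start sites, so a promoter of a shorter transcript can sit far inside the span of the longest one. Promoters are often rich in CpG, the CG dinucleotide, which is rare elsewhere in the genome. In a ChIP-seq list a peak is a place where tags exceeded the input by a set threshold, and signal below that threshold is not listed.

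The sequences that the results turn on are stretches of such internal promoters. RefSeq promoter windows of 300 bases, 250 before and 50 after a listed transcript start, were available for 15100 of 19122 autosomal protein-coding genes (79.0%). Of 35115 windows, 4507 had their start inside a protein-coding gene and over 1 kb from every gene end. Members overlapped 67 of these 4507 (1.49%), and with 3 windows whose own start lay closer to a gene end, 65 members overlapped 70 windows of 65 genes. Of the 65 members, 31 belonged to replicate 1 and 34 to replicate 2, and 0 of the 65 genes had such a member in both libraries. The rule removed peaks that overlapped the other si-Uc003xsl.1 list, which left little room for members of both libraries at 1 window. That 0 is therefore a description only. The summit lay within 300 bp of the listed start in 63 of the 65 members. The measure and the genes named for it were chosen after the values had been seen.

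Below are the bases that a member shares with the RefSeq window of its gene (GRCh38.p14), 5′ to 3′ on the strand of the gene, with each CpG in capitals. The first 6 are CpG-dense windows from both libraries and the last 2 are sparser windows shown for contrast.
SLC48A1, chr12:47773080-47773287, plus strand: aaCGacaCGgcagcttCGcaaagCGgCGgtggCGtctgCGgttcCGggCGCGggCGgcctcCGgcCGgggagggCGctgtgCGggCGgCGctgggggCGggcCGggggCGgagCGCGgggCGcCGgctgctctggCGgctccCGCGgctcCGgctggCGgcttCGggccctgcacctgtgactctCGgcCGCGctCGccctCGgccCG
HDAC7, chr12:47819980-47820153, minus strand: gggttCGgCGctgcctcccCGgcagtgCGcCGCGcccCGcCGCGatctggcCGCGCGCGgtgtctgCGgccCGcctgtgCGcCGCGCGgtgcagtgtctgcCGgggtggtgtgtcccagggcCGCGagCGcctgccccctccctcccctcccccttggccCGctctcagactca
KDM3A, chr2:86441392-86441510, plus strand: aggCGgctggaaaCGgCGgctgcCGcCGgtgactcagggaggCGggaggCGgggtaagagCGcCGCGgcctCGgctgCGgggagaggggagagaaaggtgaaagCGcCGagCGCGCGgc
NSD1, chr5:177133350-177133649, plus strand: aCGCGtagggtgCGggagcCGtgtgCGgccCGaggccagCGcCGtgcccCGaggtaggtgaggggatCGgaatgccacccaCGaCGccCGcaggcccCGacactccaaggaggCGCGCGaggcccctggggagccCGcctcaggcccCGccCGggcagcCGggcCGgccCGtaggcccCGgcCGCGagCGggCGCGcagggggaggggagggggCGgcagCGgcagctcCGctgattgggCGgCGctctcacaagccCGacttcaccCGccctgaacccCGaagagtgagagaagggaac
NLGN1, chr3:173397590-173397793, plus strand: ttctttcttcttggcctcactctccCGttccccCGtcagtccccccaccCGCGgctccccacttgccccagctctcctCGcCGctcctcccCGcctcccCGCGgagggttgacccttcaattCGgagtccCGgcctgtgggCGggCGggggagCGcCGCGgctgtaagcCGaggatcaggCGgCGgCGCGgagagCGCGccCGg
DYRK1A, chr21:37367493-37367606, plus strand: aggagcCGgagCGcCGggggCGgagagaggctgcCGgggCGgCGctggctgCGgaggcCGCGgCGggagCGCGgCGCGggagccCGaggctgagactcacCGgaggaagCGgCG
TNFSF11, chr13:42574042-42574201, plus strand: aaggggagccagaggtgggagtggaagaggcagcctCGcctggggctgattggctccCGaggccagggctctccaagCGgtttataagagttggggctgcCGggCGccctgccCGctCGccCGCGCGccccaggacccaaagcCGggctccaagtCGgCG
TSPAN10, chr17:81642218-81642354, plus strand: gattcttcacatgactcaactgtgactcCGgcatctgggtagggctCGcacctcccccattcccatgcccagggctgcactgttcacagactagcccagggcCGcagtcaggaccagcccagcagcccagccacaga

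SLC48A1, which encodes a heme transporter, had the member with the strongest -log10 p in replicate 1. The peak spanned chr12:47773080-47773417 with 19 tags and a fold of 12.72, and its summit lay 81 bp upstream of the internal start. The 208 bases shown held 36 CpG and were 81.7% G or C. At HDAC7, a class II histone deacetylase gene, a replicate 1 peak of 15 tags at chr12:47819980-47820261 had its summit 201 bp upstream of a start that lies 1441 bp inside the gene.

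KDM3A, which encodes a histone demethylase, had the window member with the most tags, 30 in replicate 2 at chr2:86441392-86441854. Its summit was 118 bp downstream of the second of 2 listed internal starts, and the fold over input was 4.08. NSD1, a histone methyltransferase gene, had 23 tags in replicate 2 at chr5:177133265-177133657, and the whole 300-base window with 37 CpG lay under that peak. NLGN1, which encodes the synaptic adhesion protein neuroligin 1, had 24 tags and a fold of 8.28 in replicate 2 at chr3:173397590-173397969, 16 bp downstream of a start. DYRK1A, a protein kinase gene on chromosome 21, had 16 tags in replicate 2 with the summit 146 bp downstream of a start, where 114 shared bases held 19 CpG.

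The 2 sparser windows belonged to replicate 1. At TNFSF11, which encodes the osteoclast factor RANKL, the peak had 11 tags and a fold of 10.6, and its window held 14 CpG. TSPAN10, a tetraspanin gene, had 14 tags and a window with 5 CpG, the lowest number among the windows under a member. Thus the windows under members were not uniform in sequence.

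In all 4 libraries a similar share of peaks lay deep inside gene bodies, without any rule on tags or width. It was 3164 of 7380 autosomal peaks in control replicate 1 (42.9%, exact Clopper-Pearson 95% interval 41.7 to 44.0) and 403 of 896 in control replicate 2 (45.0%, 41.7 to 48.3). After si-Uc003xsl.1 it was 2929 of 7442 in replicate 1 (39.4%, 38.2 to 40.5) and 1854 of 4384 in replicate 2 (42.3%, 40.8 to 43.8). The control mean was 43.9% ± 1.49 (SD, n = 2) and the si-Uc003xsl.1 mean 40.8% ± 2.07 (SD, n = 2). The groups did not overlap, but the difference of -3.10 percentage points had a two-sided exact permutation p of 0.333, the smallest that 3 splits of 2 against 2 libraries allow. Without control replicate 2 the difference was -2.05 and without si-Uc003xsl.1 replicate 1 it was -1.64. These intervals cover counting error only.

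What differed between the lists was the tag number of such peaks. Deep peaks with 10 or more tags numbered 54 in control replicate 1 against 763 and 535 in si-Uc003xsl.1 replicates 1 and 2. Of these, 0, 113 and 93 were 500 bp or wider. Among the narrow ones of the si-Uc003xsl.1 lists, 13 and 12 overlapped a peak of the other list, which left the 637 and 430 members. Over all positions, 1624 and 1077 autosomal peaks met the tag, width and overlap rules. Members were 39.2% and 39.9% of these, near the deep shares of all autosomal peaks, 39.4% and 42.3%. The difference in tag number is thus not shown to be particular to deep peaks. Control replicate 2 comes without tag counts. Its caller was a later MACS version run on longer tags with a threshold on the q-value, so within the controls a difference of replicate and one of peak calling cannot be told apart. Filtered NKRF tags numbered 8250475 to 19335431 per library, and no list was rescaled for depth. The labels do not say whether replicates came from separate cultures, so the spread between libraries may be technical.

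The members were small peaks near the lower limit of the tag rule. Tags ranged from 10 to 38 with a median of 13 in replicate 1 and from 10 to 87 with a median of 12.5 in replicate 2. Exactly 10 tags were held by 144 and 87 members, and 20 or more by 89 and 38. Median lengths were 266 bp and 289 bp. The fold enrichment over input, a ratio computed by the authors' caller, had medians of 7.5 (3.99 to 19.82) and 7.49 (2.97 to 19.74). The false discovery rate that the caller assigned was 11.11% to 32.6% in replicate 1 and 9.71% to 39.53% in replicate 2, so 0 members stood at or below 5%.

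Values just inside and just outside the thresholds of the rule were as follows. Peaks with 9 tags that met the other conditions numbered 296 and 100, with median folds of 9.41 and 9.96, against 9.335 and 8.73 at exactly 10 tags. Members in the last 50 bp below the width limit numbered 29 and 27, with median folds of 5.9 and 5.97, and the next 50 bp beyond it held 13 and 21 peaks with 4.9 and 6.11. In the first 500 bp beyond the distance limit there were 59 and 39 members, with median folds of 7.12 and 6.62, and in the 500 bp before it 113 and 94 peaks with 6.63 and 6.9. Across that limit the number within 1 kb of a listed transcript start, which outside the limit can be the outer start of the gene, was 8 and 11 of the members just inside against 71 and 64 of the peaks just outside.

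**Figure D1:**
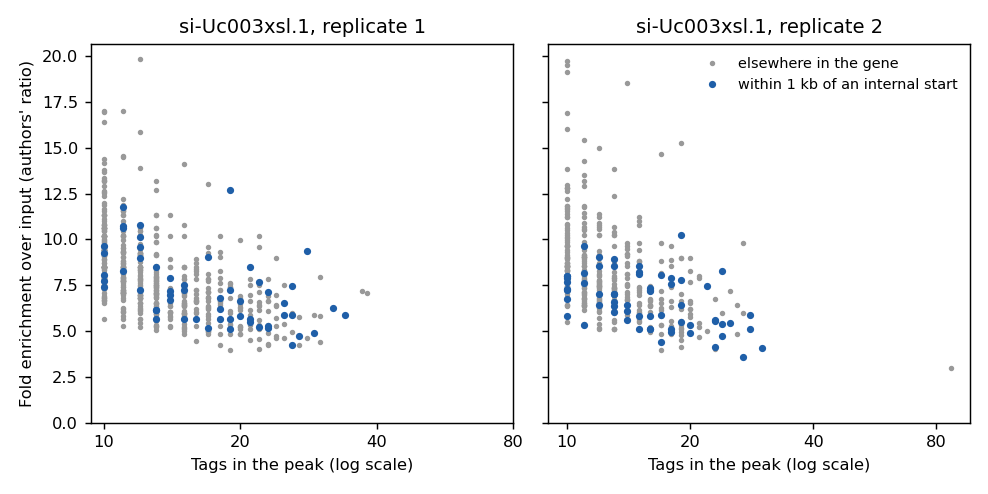
Fold enrichment over input (the authors' ratio) against the number of tags (log scale) for each of the 637 and 430 members, 1 point per member, with those within 1 kb of an internal transcript start in blue. Most members hold 10 to 20 tags, and high folds occur at low tag numbers. The single point at 87 tags in replicate 2 has the lowest fold, 2.97.

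With the same rule on tags, width and overlap, members differed from narrow peaks at gene ends in the same direction in each library. The median fold was 7.5 against 6.47 in replicate 1, where 480 peaks lay within 1 kb of a protein-coding gene end. In replicate 2 it was 7.49 against 6.625 over 406 such peaks. The mean difference of 0.948 had an exact two-sided permutation p of 0.333, the smallest possible, and the fold comes from the same peak call as the tags of the rule. Each library gave a value to both classes, and this test did not pair them. The difference was 0.345 among peaks with 15 or more tags and 0.4025 among peaks under 300 bp. The part of tag number and width in it was not tested. Gene-end peaks held more tags, with medians of 19 and 16, and were longer, with medians of 343 bp and 346 bp. Narrow peaks outside genes, 416 and 188 of them, were close to the members with medians of 12 and 12.5 tags, 260.5 bp and 291 bp, and folds of 8.32 and 7.7.

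The members with the highest -log10 p lay in genes of varied function. In replicate 1, PRDM12, which encodes a zinc finger protein of sensory neurons, had 37 tags at chr9:130681016-130681480 with a fold of 7.17. ANO1, the gene of a calcium-activated chloride channel that is amplified in some breast cancers, had 30 tags at chr11:70176887-70177355. KCTD5, an adaptor of cullin-3 ubiquitin ligases, had 15 tags at a fold of 14.13. SNTG2, which encodes a scaffold protein of the syntrophin family, had 12 tags at chr2:1134699-1134944, 117462 bp from the nearest gene end, with the highest fold of that library, 19.82. The other 5 of the first 10 after SLC48A1 were at ADARB2 (22 tags), SFXN5 (17 tags), MISP (28 tags), LRCH4 (22 tags) and EFCAB5 (11 tags).

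In replicate 2 the first was at ANGPTL6, which encodes a secreted angiopoietin-like protein, with 27 tags at chr19:10096345-10096770 and a fold of 9.78. Next came the NADPH oxidase gene NOX5, whose span overlaps the read-through gene SPESP1-NOX5, with 17 tags and a fold of 14.66. SYNJ2, a phosphoinositide phosphatase gene, had 14 tags at a fold of 18.52. ROBO1, the receptor of Slit guidance proteins, had 10 tags at chr3:79331400-79331603, 80267 bp from a gene end, with the highest fold of that library, 19.74. SREBF1, a regulator of lipid synthesis genes, had 21 tags at a fold of 7.92. FBXO31 had 20 tags, and CCDC192, CNIH3, EIF4E3 and PRR5L had 10 or 11. Only SLC48A1 and MISP among these 20 members lay within 1 kb of an internal start, MISP with its summit 598 bp away.

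Within gene bodies, peaks sat near internal transcript starts more often after si-Uc003xsl.1. Over all deep peaks, with no tag rule, 15 of 3164 (0.474%) in control replicate 1 and 2 of 403 (0.496%) in control replicate 2 had their summit within 1 kb of a listed start. After si-Uc003xsl.1 it was 133 of 2929 (4.54%) in replicate 1 and 130 of 1854 (7.01%) in replicate 2. Such positions made up 0.733% of the 1151.71 Mb of gene body that the rule searched. Unlike for the internal windows above, a listed start counted here even where it lay within 1 kb of a gene end. The means were 0.485% ± 0.0157 (SD, n = 2) and 5.78% ± 1.75 (SD, n = 2), with each si-Uc003xsl.1 value above each control value. The difference of 5.29 percentage points had an exact two-sided permutation p of 0.333, the smallest that 2 libraries per group allow. Peaks at the outer ends of genes were already known to be more frequent in the si-Uc003xsl.1 lists, so this is not independent of that pattern.

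Among the members the share was 55 of 637 in replicate 1 (8.63%, exact Clopper-Pearson 95% interval 6.57 to 11.1) and 62 of 430 in replicate 2 (14.4%, 11.2 to 18.1). Counting only members whose gene is in the promoter table, it was 55 of 508 (10.8%) and 62 of 339 (18.3%). The summits were placed unevenly around the start, with 38 of the 55 and 44 of the 62 downstream of it. In replicate 2 the fullest bin was the 500 bp just downstream, with 8.14% of members, and in replicate 1 the same bin held 3.45%.

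**Figure D2:**
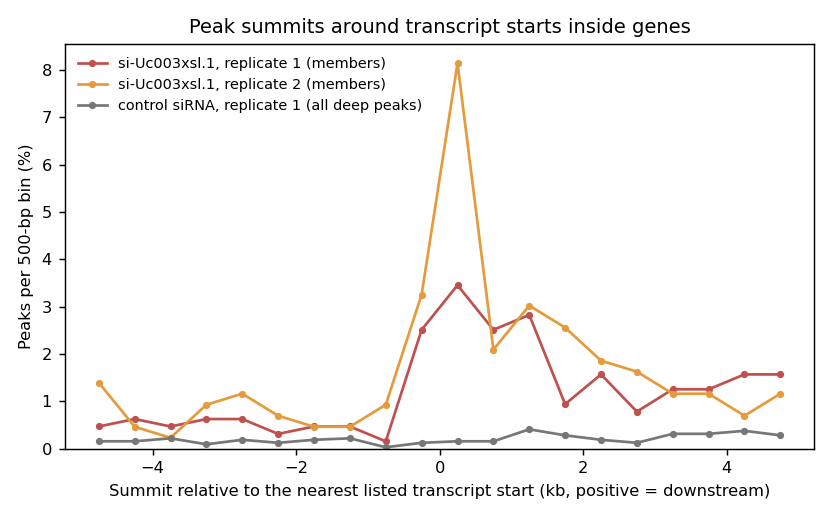
Share of peaks (%) whose summit falls in each 500-bp bin around the nearest listed transcript start, in kb with positive values downstream. Lines show the members of each si-Uc003xsl.1 library and all deep peaks of control replicate 1. Beyond 1 kb the nearest start can be the outer start of a gene. The bin from 0 to 500 bp holds 3.45% and 8.14% of members, and the control line has no maximum there.

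The share near internal starts depended on the number of tags in the peak. Among deep peaks with 6 tags it was 0.474% in control replicate 1, 0.522% in si-Uc003xsl.1 replicate 1 and 0.593% in replicate 2, and their intervals overlapped. With 7 to 9 tags the shares were 0.4% (exact Clopper-Pearson interval 0.109 to 1.02), 1.49% (0.885 to 2.34) and 3.73% (2.40 to 5.49). The control interval of that class overlapped that of si-Uc003xsl.1 replicate 1 and lay below that of replicate 2. With 10 to 14 tags the shares were 1 of 54 in the control (1.85%, exact Clopper-Pearson interval 0.0469 to 9.89), 5.26% (3.33 to 7.86) and 8.72% (5.78 to 12.5). In that class the control interval covered both other values. With 15 or more tags, wide peaks included, 88 of 345 (25.5%) and 76 of 237 (32.1%) lay near such a start, and control replicate 1 had no deep peak of that size. The part of the low tag numbers of control replicate 1 in the difference between groups was not tested. Among members alone the shares were 5.33% and 8.84% at 10 to 14 tags and 14.7% and 26.5% at 15 or more.

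**Figure D3:**
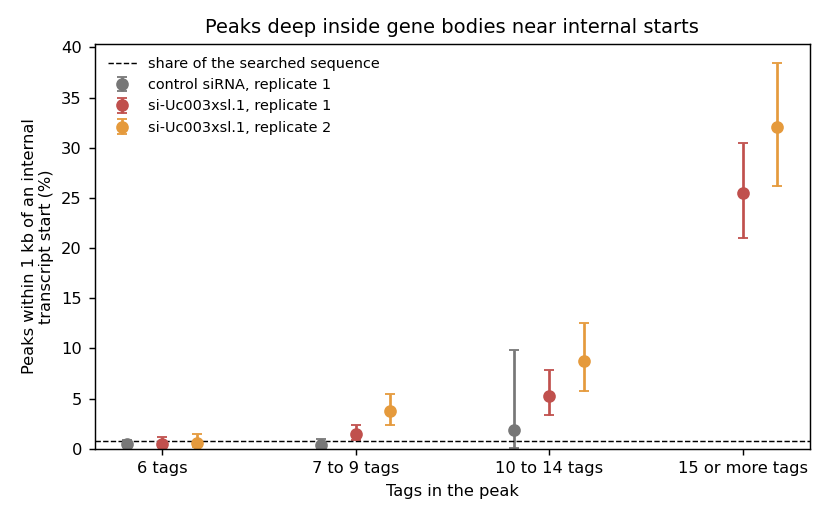
Share of deep peaks (%) within 1 kb of an internal transcript start by the number of tags in the peak, for the 3 lists that give tag counts; bars are exact Clopper-Pearson 95% intervals and the dashed line is the share of searched sequence, 0.733%. All 3 lists sit near the line at 6 tags, and the si-Uc003xsl.1 lists reach 25.5% and 32.1% at 15 or more tags, where control replicate 1 has no peak.

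Members near an internal start were closer to gene-end peaks in tag number and width than other members were. Their median tags were 17 against 12.5 elsewhere in the gene in replicate 1, and 15.5 against 12 in replicate 2. Median lengths were 319 bp against 263 bp and 342.5 bp against 285 bp. Median folds were lower, 6.98 against 7.555 and 6.495 against 7.7.

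CpG density separated the internal windows that carried members from the rest. The 67 windows under a member had a median of 31 CpG in 300 bases and a median GC content of 71%, against 8 CpG and 56% over all 4507. The ratio of observed to expected CpG had a median of 0.85 against 0.386 and exceeded 0.6 in 59 of the 67 against 34.6% of all. Split by CpG number, 0 of 1243 windows with 0 to 3 CpG had a member (exact upper limit 0.296%). It was 2 of 1111 with 4 to 8 CpG (0.18%), 18 of 1075 with 9 to 23 (1.67%) and 47 of 1078 with 24 to 66 (4.36%, exact Clopper-Pearson interval 3.22 to 5.76). The 5 internal windows under a deep peak of a control list all had 0 to 3 CpG. No deep control peak stood at a window of the densest class, where 118 windows had a deep peak of either si-Uc003xsl.1 library. Few control deep peaks overlapped any window, 5 of 3164 (0.158%) in control replicate 1 and 0 of 403 in replicate 2. The 0 in the densest class therefore does not show that control peaks avoided it. GC content and sequencing bias of each library were not measured beyond these counts.

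Short motifs in the windows followed the CpG content. GGGCGG, the GC box bound by SP1 family factors, stood on either strand in 52 of the 67 windows (77.6%), against 37.3% of all internal windows and 87.2% of those with 24 or more CpG. CCGGAAG, an ETS family core, stood in 8 (11.9%, against 5.52% and 11.2%), and the E-box CACGTG in 7 (10.4%, against 5.72% and 8.16%). The AP-1 motif TGANTCA stood in 3 (4.48%, against 8.72% of all and 2.13% of the CpG-dense ones) and TATAAA in 2 (2.99%, against 12.2% and 1.67%). The NF-kB site stood in 10 of the 67 (14.9%), against 12.2% of all internal windows and 22.1% of the CpG-dense ones. These are matches of letters, and other parts of the peaks were not searched.

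Genes with a member at an internal window had varied functions; those named here are examples picked by hand. Transcription factor and cofactor genes included PRDM1 (14 tags), KLF7 (18 tags) and GATAD2A (16 tags) in replicate 1, and TGIF1 (18 tags), CTBP2 (15 tags), NR3C2 (13 tags) and NKX3-2 (20 tags) in replicate 2. PRDM1 encodes the repressor BLIMP1, CTBP2 a corepressor, and NR3C2 the mineralocorticoid receptor. Signalling genes included PIK3CD, which encodes a catalytic subunit of phosphoinositide 3-kinase, with 27 tags in replicate 1, and STK32C, a kinase gene with 19 tags in replicate 2. RNA-binding proteins were encoded, for example, by LARP1 (24 tags) and CELF2 (19 tags), both in replicate 2, and the chaperones HSPA12A (18 tags, replicate 1) and DNAJB1 (15 tags, replicate 2) belonged to the HSP70 and HSP40 families. AGBL5 had the most tags of replicate 1 windows, 29, and TCIRG1 had 28 in replicate 2. FNDC3B also had 28 in replicate 2, but its listed start lay 953 bp from the start of the gene, so its window was not counted as internal. Its member still counted among those within 1 kb of a listed start.

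Along the gene from start to end, members were split about evenly around the midpoint. For members with 1 host gene in the promoter table, the upstream side held 239 of 488 in replicate 1 (49.0%, exact Clopper-Pearson interval 44.5 to 53.5) and 158 of 331 in replicate 2 (47.7%, 42.2 to 53.3). Over all deep peaks the control shares were 47.8% and 49.7%, and the difference between groups had an exact permutation p of 0.667. The first 10% of the gene held 48 of 488 members (9.84%) and 47 of 331 (14.2%). Over all deep peaks it held 9.88% and 9.28% in si-Uc003xsl.1 replicates 1 and 2, and 7.21% and 7.81% in the controls.

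Distances from members to the nearest gene end varied widely. The median was 10136 bp in replicate 1 and 7027.5 bp in replicate 2. The farthest member of replicate 2 lay 199147 bp inside PTPRN2. Over 10 kb away were 323 and 167 members, over 100 kb 26 and 5, and within 2 kb 97 and 80. Over all deep peaks the median distance was 30.9 kb and 22.4 kb in control replicates 1 and 2, and 18.7 kb and 14.2 kb in si-Uc003xsl.1 replicates 1 and 2. The difference of -10.2 kb had an exact two-sided permutation p of 0.333, the smallest possible, and the 2 groups did not overlap.

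Members were dense in short genes and sparse in long ones. Per Mb of searched gene body, replicate 1 had 2.57 members in genes under 10 kb, 1.63 at 10 to 30 kb, 0.732 at 30 to 100 kb, 0.521 at 100 to 300 kb and 0.204 in longer genes, with a peak in overlapping genes counted under each. Replicate 2 fell over the same bins from 2.50 to 0.131. All deep peaks of these libraries fell less steeply, from 5.13 to 2.11 and from 4.44 to 1.08 per Mb. All deep peaks of control replicate 1 ran the other way, from 0.624 per Mb in genes under 10 kb to 3.31 in those over 300 kb, and control replicate 2 stayed between 0.324 and 0.380. Compared without the tag rule, the density in genes up to 30 kb was 0.437 and 1.03 times that in genes over 100 kb in the control libraries, and 1.63 and 2.46 times after si-Uc003xsl.1. The log2 difference of 1.58 had an exact two-sided permutation p of 0.333, the smallest possible. Because long genes hold more sequence, the share of genes with a member still rose with length, from 0.911% to 9.34% in replicate 1 and from 0.887% to 5.82% in replicate 2.

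**Figure D4:**
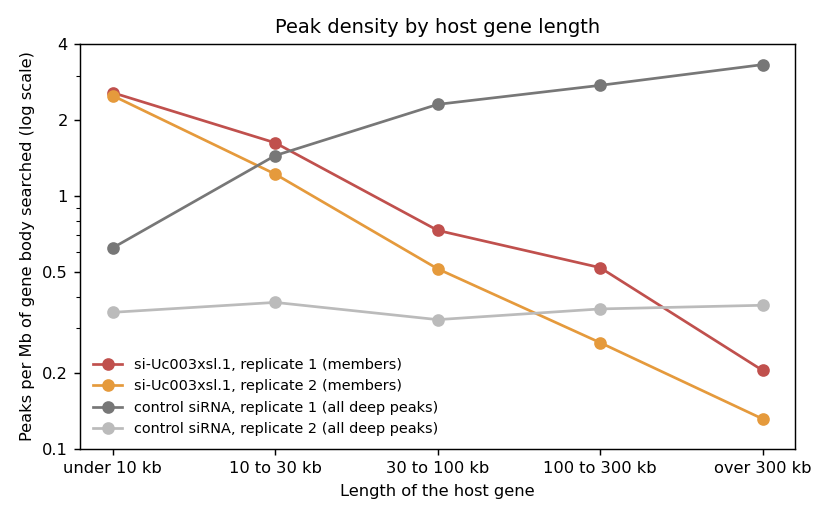
Peaks per Mb of searched gene body (log scale) by length of the host gene, for the members of each si-Uc003xsl.1 library and all deep peaks of each control library. Member density falls from 2.57 and 2.50 to 0.204 and 0.131 per Mb, while control replicate 1 rises from 0.624 to 3.31.

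Chromosome 19, the most gene-dense autosome, had the most members per Mb in both libraries. It held 54 and 44 members, 1.92 and 1.57 per Mb against 0.553 and 0.373 over all autosomes, which is 3.48 and 4.20 times the mean of the library. For members alone, chromosome 17 stood at 1.86 and 2.69 times the mean, chromosome 16 at 1.99 and 2.21 and chromosome 20 at 1.87 and 2.16, while chromosome 15 was low at 0.362 and 0.402. Without the tag and width rules the contrast was smaller. Over all deep peaks, chromosome 19 stood at 1.48 and 2.12 times the mean in si-Uc003xsl.1 replicates 1 and 2, and at 0.324 and 0.203 in control replicates 1 and 2. Chromosome 17 stood at 1.18 and 1.67 against 0.607 and 0.841, and chromosome 16 at 1.24 and 1.04 against 0.27 and 0.863. On chromosome 20 the groups overlapped, with 1.16 and 1.21 against 0.739 and 1.42. Over all deep peaks, chromosomes 16, 17, 19 and 22 together held 4.01% and 7.44% in the control libraries and 13.2% and 16.1% after si-Uc003xsl.1, against 10.7% of the searched sequence. The difference of 8.96 percentage points had an exact two-sided permutation p of 0.333, the smallest possible. These chromosomes are rich in G and C, and a dependence of each library on base composition was not tested.

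**Figure D5:**
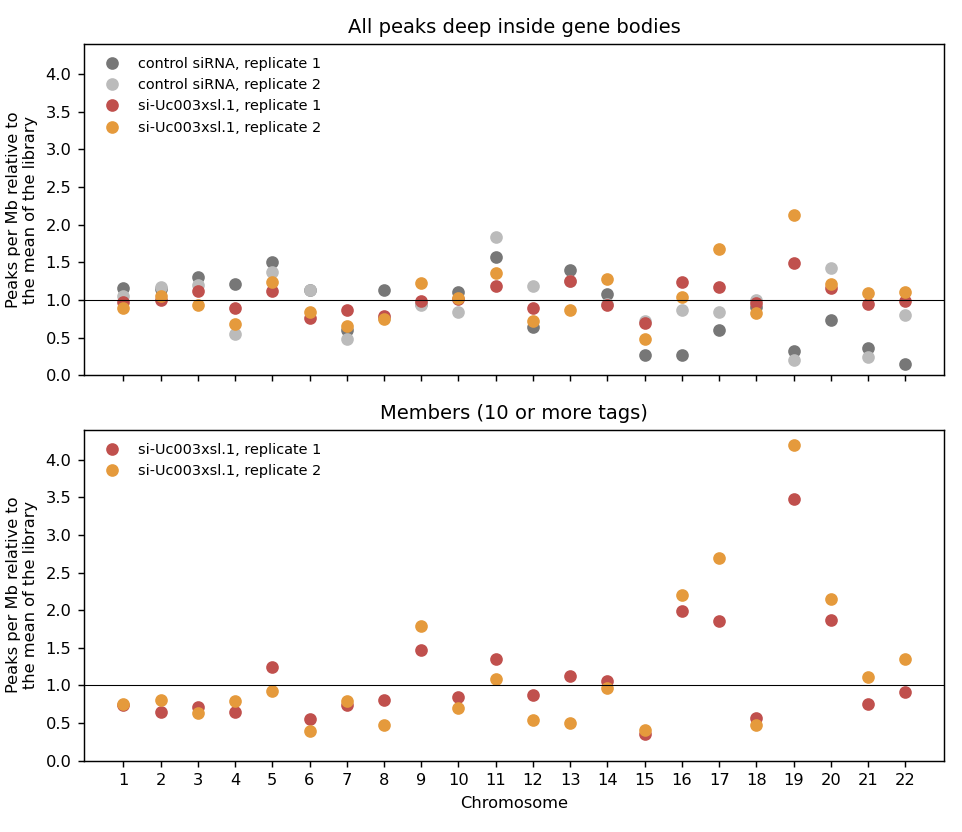
Peaks per Mb of searched gene body on each autosome, divided by the mean over the autosomes of the same library, for all deep peaks of the 4 libraries (top) and for members (bottom); the line marks the mean. Chromosome 19 reaches 1.48 and 2.12 over all deep peaks after si-Uc003xsl.1 against 0.324 and 0.203 in controls, and 3.48 and 4.20 for members.

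The members lay in many genes, mostly 1 per gene. Of 17857 protein-coding genes with room over 1 kb from every gene end, 616 (3.45%) had a member of replicate 1 and 397 (2.22%) of replicate 2, and 955 (5.35%) of either. A single member was held by 576 and 362 of these genes. Both libraries had a member in 58 genes, which is 9.42% of the replicate 1 genes and 14.6% of the replicate 2 genes. The median length of these 58 genes was 113 kb, against 27.8 kb for all 17857.

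PTPRN2 had the most members, 11. This gene of a receptor-type tyrosine phosphatase spans 1048.77 kb of chromosome 7 and had 6 members in replicate 1 and 5 in replicate 2, with 10 to 19 tags each. ANKRD11, which encodes a chromatin regulator on chromosome 16, had 4 and 1, and 4 of these 5 also lay in the overlapping gene LOC128462377. CDH4, the gene of R-cadherin, had 2 and 3. MTA1, a subunit gene of the NuRD histone deacetylase complex, had 1 and 3 in a span of 50.903 kb. CHLSN had 2 and 2, and ANO1 3 and 1. Control replicate 1 had 1 deep peak in PTPRN2, and control replicate 2 had 1 in ANKRD11. Over all searched gene bodies these 2 libraries had 2.75 and 0.350 deep peaks per Mb, and on chromosome 7 they had 1.64 and 0.169. The genes were picked for their members, so these control counts are not read as low.

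Because the rule removed peaks that overlapped the other si-Uc003xsl.1 list, members of both libraries in 1 gene are separate by construction, and their distances are a description. The nearest pair of summits was within 1 kb in 1 of the 58 genes and within 10 kb in 16, with a median of 20.2 kb. At CDH4 the summits were 838 bp apart, with 18 tags at chr20:61724002-61724338 in replicate 1 and 12 tags at chr20:61723202-61723505 in replicate 2. IRX3, a homeobox transcription factor gene of 3.484 kb, had 24 and 19 tags with summits 1003 bp apart on chromosome 16. In so short a gene the distance rule leaves little room, so any 2 members there must be close. The next were CHLSN at 1101 bp, IGSF9B at 3053 bp, CPLX1 at 3927 bp, PRKAG2 at 4417 bp, KCTD5 at 4510 bp and DIDO1 at 5195 bp. CPLX1 encodes complexin 1 of synaptic vesicle release, and PRKAG2 a regulatory subunit of the AMP-activated kinase.

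Members were also set beside the peaks of the control lists. None of the 1067 overlapped a peak of either control list, but such overlap was rare for any si-Uc003xsl.1 peak: it held for 2 of 2929 deep peaks in replicate 1 (0.0683%) and 1 of 1854 in replicate 2 (0.0539%), and for 11 of 7442 (0.148%) and 5 of 4384 (0.114%) autosomal peaks. Within 10 kb of a peak of control replicate 1, which has 7380 autosomal peaks, were 20 replicate 1 members (3.14%) and 6 of the 430 replicate 2 members. Within 10 kb of a peak of the other si-Uc003xsl.1 list were 59 (9.26%) and 47 (10.9%), in lists of 4384 and 7442 autosomal peaks. No share within 10 kb over all si-Uc003xsl.1 peaks stands beside these counts, so they are not read as particular to members. The nearest to a control peak was a 10-tag member in RAPGEF2, a Rap GTPase exchange factor gene, 318 bp from a 7-tag peak of control replicate 1. The next were MITF, the melanocyte transcription factor gene, at 404 bp and AKAP19 at 956 bp, each facing a 6-tag peak of the same library.

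Members in gene families were counted beside genes of the same length, since length sets how much room a gene offers. Of 36 NF-kB signalling genes with room for a member, IKBKE, an IkB kinase gene, had 1 in replicate 1 with 12 tags, which is 2.78% against 3.37% of genes of the same lengths. In replicate 2 the adaptor genes TRAF2 (15 tags) and TRAF1 (13 tags) had 1 each, 5.56% against 2.20%. Of 53 receptor tyrosine kinase genes, PDGFRB (17 tags) and EPHA1 (12 tags) had a member in replicate 1, and ERBB2 (14 tags) and AXL (10 tags) in replicate 2. Each pair is 3.77% of the list, against 5.46% and 3.27% of genes of those lengths. These shares rest on 1 or 2 genes.

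Of 57 cadherin and catenin genes, 5 (8.77% against 5.50%) and 4 (7.02% against 3.31%) had a member. CDH22 had 22 tags in replicate 1, CDH4 and the flamingo cadherin gene CELSR3 had members in both, and PCDH1 had 14 tags in replicate 1. CDH2, the N-cadherin gene of mesenchymal cells, had 10 tags in replicate 1. Of 52 voltage-gated channel genes and their relatives, 5 (9.62% against 6.82%) and 3 (5.77% against 4.01%) had a member, among them KCNN1 with 25 tags in replicate 2 and CACNA1I with 13 tags in replicate 1.

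Of 75 genes for histone and DNA modifying enzymes and remodelers, 3 had a member in each library, 4% against 5.41% and 3.10% of genes of the same lengths. They were HDAC7, KDM4B and SMARCC1 in replicate 1, and KDM3A, NSD1 and the chromodomain helicase gene CHD9 in replicate 2. Of these 6 members, listed in full after their values were seen, 4 had their summit within 1 kb of an internal start: KDM3A at 118 bp, HDAC7 at 201 bp, NSD1 at 274 bp and CHD9 at 401 bp. Over all members this share was 8.63% and 14.4%, and no test was made of the difference. KDM4B and SMARCC1, with 12 tags each, lay 19045 bp and 27523 bp from the nearest listed transcript start of any kind. For KDM4B the nearest gene end was also 19045 bp away. The bases under KDM3A, NSD1 and HDAC7 are among those printed above. No list was tested as a set.

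In replicate 1, 5 of the 637 members overlapped a microRNA hairpin inside the host gene, and in replicate 2 it was 0 of 430. This is an overlap of position and shows no effect on the microRNA. No share over all deep peaks or the control lists stands beside these counts, so they are a description only. For 4 of the 5 members a whole mature microRNA lay under the peak, shown 5′ to 3′ from RefSeq (GRCh38.p14). The seed, bases 2 to 8, is in capitals, and the 4 seeds differ.
hsa-miR-615-3p: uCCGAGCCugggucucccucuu
hsa-miR-7854-3p: uGAGGUGAccgcagaugggaa
hsa-miR-6887-3p: uCCCCUCCacuuuccuccuag
hsa-miR-7845-5p: aAGGGACAgggagggucgugg

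The first lies in the span shared by HOXC4 and HOXC5, homeobox genes of body patterning, under a peak of 16 tags at chr12:54034006-54034271. The second lies in CMIP under 15 tags, the third in FXYD3, an ion pump regulator gene, under 10 tags, and the last in KLF7 under 18 tags. The KLF7 peak is also among those at an internal promoter window. The fifth hairpin, MIR658, lay at the edge of a 12-tag peak in ANKRD54.

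The member with the most tags of all, 87 in replicate 2 at chr1:633963-634094, overlapped MTATP6P1, a nuclear copy of a mitochondrial gene, inside the gene LOC102724250. Its fold of 2.97 was the lowest of the 1067. The peak may hold tags from mitochondrial DNA, and the 2 sequences were not compared, so this member is uncertain.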

How the data were processed

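NKRF ChIP-seq peak lists of 4 libraries, 2 per group by the sample titles, were used; the input libraries were not analysed here beyond the totals in the headers. The submitters' processing notes name Bowtie2, CASAVA 1.4 and the build GRCh38.p11. Each list was called on 1 library against 1 input, per the file headers: with MACS 1.4.2 (p-value threshold 1.00e-04, 50-bp tags) for control replicate 1 and both si-Uc003xsl.1 libraries, and with MACS 2.1.1.20160309 (q-value threshold 0.05, 105-bp tags) for control replicate 2. The deposited MACS 1.4.2 lists give the tag count per peak, not normalized, the p-value as a score (-10 log10), the fold enrichment over input as a ratio and a false discovery rate in percent, per the file headers. The deposited list of control replicate 2 gives the pileup signal, the fold as a ratio, and p- and q-values as -log10, per the file headers. All of these are the authors' values and serve here to describe, rank or filter peaks within a list.

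Filtered NKRF tags numbered 19335431 and 8250475 in control replicates 1 and 2, and 18890698 and 11366267 in si-Uc003xsl.1 replicates 1 and 2; the caller assumed fragments of 49, 150, 60 and 67 bp. A longer fragment or a stricter threshold changes which small peaks are listed.

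Summits were start + summit - 1, on GRCh38 coordinates, 1-based. Gene spans and promoter windows came from RefSeq GRCh38.p14, and patch releases keep primary coordinates; no promoter window of chromosome 8 was used. Overlap meant 1 shared base. Values per library were compared by two-sided exact permutation of the group labels, with 3 possible arrangements. Shares carry exact Clopper-Pearson 95% intervals (scipy 1.17.1, pandas 2.3.3, numpy 2.4.6, Python 3.11.15). The counting code was tested on simulated peaks. The members and the gene lists were chosen with earlier results of these data known; some listed genes and lists are not reported here. Named genes were the 10 members per library with the highest -log10 p, the 8 genes whose members from both libraries were closest, the 5 genes with the most members (ties kept), up to 4 genes per list by tags (CDH2 and the complete list of chromatin enzymes were added after values were seen), and the 3 members nearest a control peak. The internal-start measure, gene length and chromosome comparisons, and the microRNA and promoter-window genes were chosen after values were seen. Alternatives covered the tag, width, distance and overlap rules, list length, and leaving out each library. Peaks on chromosome X, scaffolds and the mitochondrial chromosome were left out by the rule.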

Additional observations from a re-analysis of the deposited data

Results flagged for a closer look

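On chromosome X, which the rule on chromosomes 1 to 22 leaves out, 3 peaks of si-Uc003xsl.1 replicate 1 and 2 of replicate 2 otherwise met every condition for a member. Control replicate 1 had 0 narrow deep peaks with 10 or more tags on that chromosome. No comparison was made with these peaks.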

How the results depend on the processing

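The share of deep peaks kept its direction under all 9 alternatives (-8.04 to -1.64 percentage points), the share near internal starts under all 11 (3.38 to 12.0) and the fold difference from gene-end peaks under all 6 (0.345 to 1.15). Leaving out each library in turn gave -4.57 to -1.64, 4.06 to 6.53 and 0.865 to 1.03. With the replicate number as a block the values were again -3.10, 5.29 and 0.948, with an exact sign-flip p of 0.5, the smallest that 2 pairs allow; deviations of same-numbered libraries correlated at 0.0172 over 22 chromosomes, so the numbers were not shown to pair libraries. The number of members fell to 360 at 15 or more tags, 684 over 5 kb from gene ends and 657 under 300 bp, since each rule keeps fewer peaks. Genes with members of both libraries numbered 10 at 15 or more tags and 473 with all tag numbers. Alternatives for the internal starts were chosen after seeing the data. Control replicate 1 had the most NKRF tags but no deep peak of 15 or more tags, and the cause was not tested. With 2 libraries per group no test could reach 0.05.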
